A study of Mus musculus with 9 samples.

Results

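The 10 genes described here encode the MHC class I presentation machinery and NLRC5, a regulator of class I genes. They were chosen by symbol as the rows of the expression table that name *H2-K1*, *H2-D1*, *H2-Q7*, *H2-T23*, *B2m*, *Tap1*, *Tap2*, *Tapbp*, *Erap1* and *Nlrc5*. All 10 were found among the 55487 genes listed, and all 10 passed the filter on low values. The rule itself uses symbols only, although the symbols were picked with earlier results of these data known. RNA-seq was carried out on CD4+ T cells isolated by negative selection from the spleens of female C57BL/6 mice aged 6 to 7 weeks that carried the wild-type Trail-r locus (Trail-r+/+) on both alleles. The 9 libraries fell into 3 groups of 3. Unstimulated cells were kept in medium, for a time that the sources used here do not give. Activated cells were stimulated for 24 h with Abs against CD3, at 3 µg/ml, and CD28, at 2 µg/ml. TRAIL-treated activated cells received the same stimulation together with TRAIL (10 µg/ml), a TNF-family ligand, for 24 h. Nothing in the sources says whether the libraries of a group came from separate mice or cultures, so the p-values measure only the spread between these libraries, which may be technical.

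MHC class I molecules display peptides from inside the cell to CD8 T cells, and most nucleated cells, T cells included, carry them. The peptides are cut by the proteasome, which takes up inducible subunits under IFN-γ, and are carried into the endoplasmic reticulum by the TAP transporter. There ERAP1 trims them, and tapasin bridges TAP to a waiting heavy chain bound to β2-microglobulin until a fitting peptide is loaded. Many of the genes are induced by interferons, by NF-κB and by NLRC5, a nuclear regulator that acts at class I promoters together with the RFX factors.

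The machinery did not move as a block, as seen in the plot of TPM by library. With stimulation, the nonclassical heavy chain *H2-T23* rose 1.87-fold, the transporter gene *Tap1* rose 1.45-fold, and *H2-K1*, the most abundant heavy chain, fell to 0.753 of its unstimulated level. In TRAIL-treated activated cells all of these moved the opposite way relative to activated cells, and *Tap1* and *Tapbp* were also below unstimulated cells. *Erap1* and *H2-T23* were below them as well, but neither passed after median-of-ratios scaling, and *H2-T23* did not pass without unstimulated replicate 2 or TRAIL-treated replicate 3. *B2m*, *H2-D1*, *H2-Q7* and *Nlrc5* passed the test in no comparison on the TPM as deposited with all libraries in the fit, and exceptions under other settings are given with each gene. Values are TPM, which scale the reads of a gene by its length and by the library total, so the levels of different genes can be set side by side. Fold changes are on the scale of log2(TPM + 1), and a gene passed where limma gave a Benjamini-Hochberg adjusted p under 0.05 over the 15536 genes tested.

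**Figure D1:**
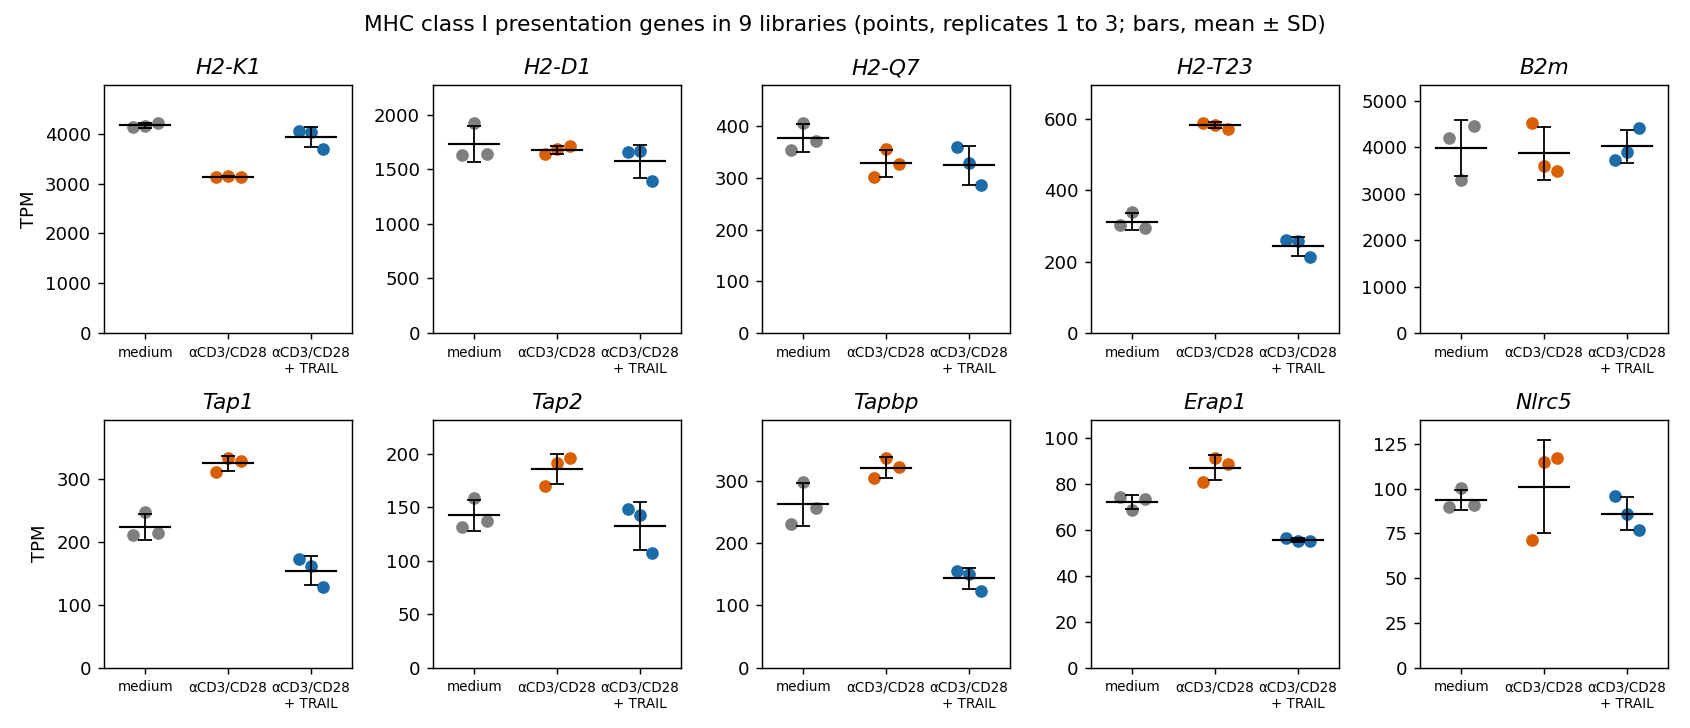
TPM (y axes, from 0) of the 10 class I presentation genes in unstimulated cells (medium), activated cells (αCD3/CD28) and TRAIL-treated activated cells (αCD3/CD28 + TRAIL). Points are libraries in the order of replicates 1 to 3 and bars are the mean ± SD of 3. *H2-T23* reached 572 to 588 TPM in activated cells and no more than 338 TPM elsewhere, while the libraries of *B2m* spread over 3301 to 4524 TPM with no group apart.

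In activated against unstimulated cells, 5 of the 10 genes rose and 1 fell, where 28.8% of all genes tested rose and 40.0% fell. Without activated replicate 2 or 3 the members that passed were 3 in place of 6, and under quantile normalization the balance of all genes turned from 4470 higher and 6208 lower to 5576 and 5193. None of the 10 changed by at least 1 on the log2 scale, although 31.9% of all genes did so and passed. In TRAIL-treated activated against activated cells, 1 rose and 5 fell, beside 33.5% of all genes that rose and 33.5% that fell. Of the 5, *H2-T23*, *Tapbp* and *Tap1* fell by at least 1, and 30.9% of all genes changed by that much in either direction and passed, while quantile normalization left *H2-T23* alone of the 3. In TRAIL-treated activated against unstimulated cells, 0 rose and 4 fell, beside 8.03% and 24.6% of all genes, and none of the 10 reached a change of 1, which 4.62% of all genes did. After median-of-ratios scaling 2 members passed here in place of 4, *Tap1* and *Tapbp*, and all genes gave 1943 higher and 2139 lower in place of 1247 and 3816. The median difference of the 10 was 0.17, -0.35 and -0.18 in the 3 comparisons, and that of all genes tested was -0.15, 0.01 and -0.18. The median of the 10 thus lay at that of all genes in the last comparison. These 3 comparisons share libraries and are not independent of one another. Scaling the TPM by median-of-ratios factors moved the median of all genes by 0.17 in TRAIL-treated activated against unstimulated cells, and quantile normalization moved it by 0.19 in activated against unstimulated cells. The differences below should be read relative to the medians of all genes.

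**Figure D2:**
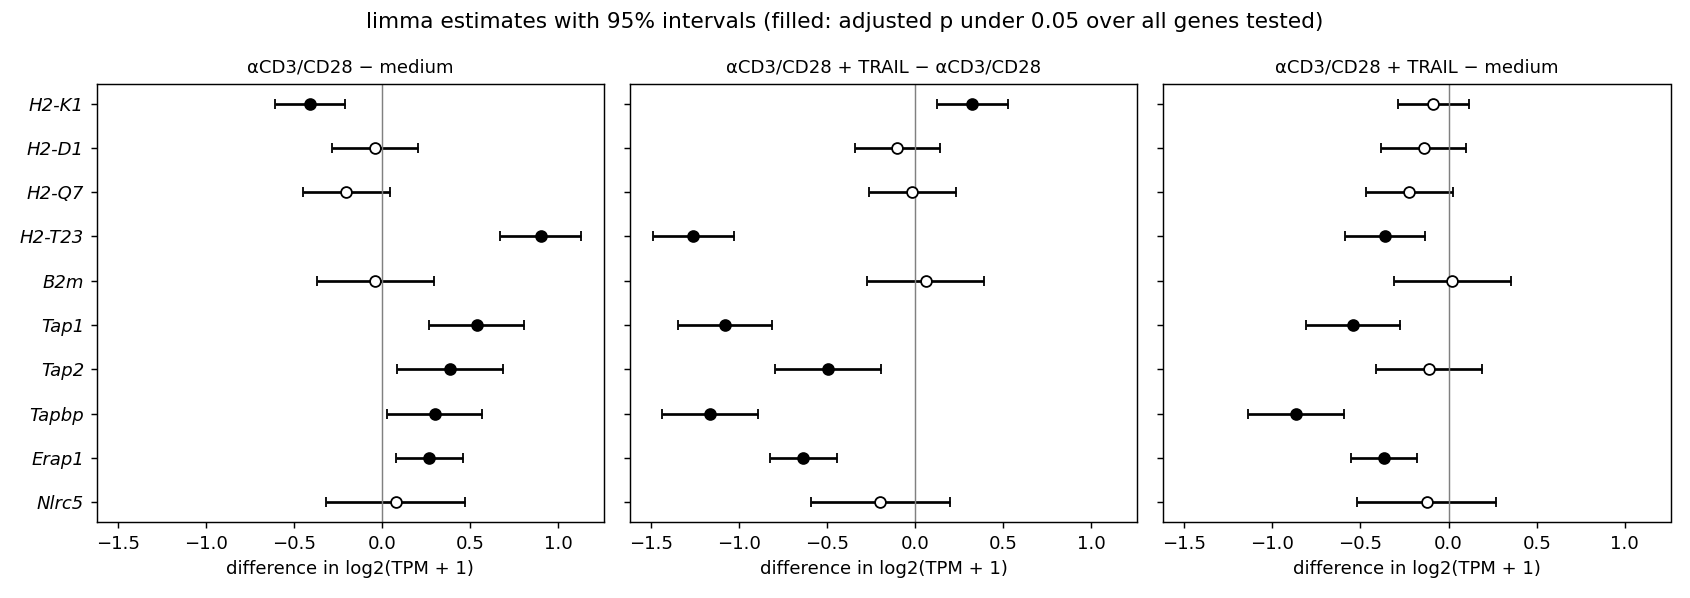
limma differences in log2(TPM + 1) (x axes) with 95% intervals for the 10 genes in each of 3 comparisons. Filled points passed an adjusted p under 0.05 and open points did not. *H2-K1* and *H2-T23* lie on opposite sides of 0 in the first and second panels.

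The labelled cell type was checked before the single genes were compared. All 8 T cell markers were present at 1 TPM or more, with a summed level of 3743 to 3893 TPM in unstimulated cells, 2980 to 3306 TPM in activated cells and 3765 to 4092 TPM in TRAIL-treated activated cells. *Cd4* stood at 384 ± 44.9 TPM, 220 ± 44.0 TPM and 384 ± 46.7 TPM (SD, n = 3). Transcripts of other cell types were also there. The 10 B cell markers summed to 6540 to 7195 TPM in unstimulated cells, 732 to 801 TPM in activated cells and 3212 to 3714 TPM in TRAIL-treated activated cells. All 10 passed as lower with stimulation and as higher with TRAIL. The 14 myeloid markers summed to 2390 to 2680 TPM, 117 to 142 TPM and 1737 to 1983 TPM, and all 14 moved in the same manner. No B cell marker was at 0 in any group, and the myeloid marker *Lyz2* (7.48 TPM) was still detected in activated cells. The 7 erythroid markers summed to 2137 to 2585 TPM, 24.8 to 39.6 TPM and 619 to 669 TPM, the 5 NK cell markers to 178 to 214 TPM, 54.5 to 73.6 TPM and 62.8 to 68.1 TPM, and the 2 CD8 T cell markers to 110 to 118 TPM, 94.2 to 105 TPM and 46.9 to 49.4 TPM. The 8 dendritic cell markers summed to 65.6 to 69.3 TPM, 39.9 to 42.7 TPM and 40.8 to 46.2 TPM, with 4 of them under 1 TPM in every activated library. Most of the activated sum came from *Batf3* (29.6 TPM) and *Zbtb46* (5.86 TPM), which rose with stimulation and fell with TRAIL, while the other 6 fell and then rose. B cells and myeloid cells carry class I molecules themselves. The part of these cells in the results on class I genes was not tested, and in bulk libraries fewer cells of a type and less RNA per cell cannot be told apart.

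**Figure D3:**
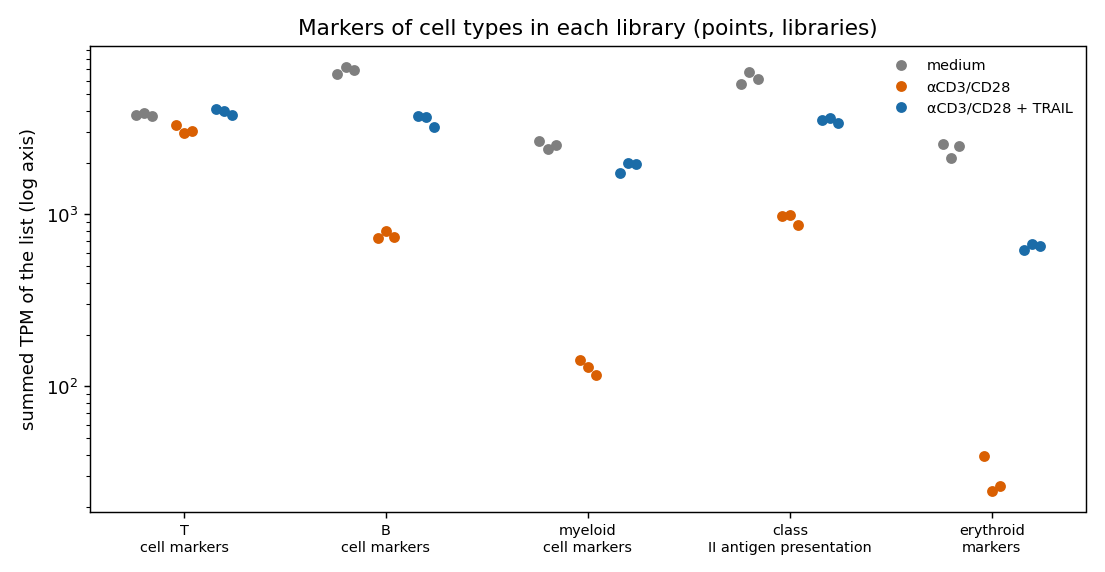
Summed TPM (log axis) of marker lists for T cells, B cells, myeloid cells, class II antigen presentation and erythroid cells in each of the 9 libraries (points). The B cell, myeloid, class II and erythroid sums are lowest in the activated libraries and lie between the other groups in the TRAIL-treated ones, while the T cell sums span 2980 to 4092 TPM.

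The classical heavy chains *H2-K1* and *H2-D1* present peptides to CD8 T cells and together made up most of the class I heavy chain transcripts. *H2-K1* lies on the minus strand of chromosome 17 (GRCm38, 33996017 to 34000347) and *H2-D1* on the plus strand of the same chromosome (35262730 to 35267499). *H2-Q7*, which encodes the GPI-anchored Qa-2 antigen, lies between 35439155 and 35443773, and *H2-T23*, which encodes Qa-1, the ligand of CD94/NKG2 receptors, between 36029773 and 36032855 on the minus strand. The bases before their start sites, from RefSeq (GRCm38.p6), are printed to show where the 4 heavy chain genes hold the same letters and where they do not. The part of these letters in the levels of the genes was not tested. Capitals mark, where they occur, an NF-κB site, an interferon response element core (GAAANNGAA or GAANNGAAA), the cyclic AMP response element core (TGACG) and a CCAAT box (ATTGG), each on either strand.

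H2-K1, chr17:34000348-34000527, minus strand: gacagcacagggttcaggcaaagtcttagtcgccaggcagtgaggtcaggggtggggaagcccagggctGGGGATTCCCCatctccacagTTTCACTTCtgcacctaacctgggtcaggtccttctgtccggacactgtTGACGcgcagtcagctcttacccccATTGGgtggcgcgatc
H2-D1, chr17:35262914-35263093, plus strand: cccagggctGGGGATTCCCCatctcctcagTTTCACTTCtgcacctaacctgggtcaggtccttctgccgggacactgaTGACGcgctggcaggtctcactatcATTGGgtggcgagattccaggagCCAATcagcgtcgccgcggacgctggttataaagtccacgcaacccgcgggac
H2-Q7, chr17:35438975-35439154, plus strand: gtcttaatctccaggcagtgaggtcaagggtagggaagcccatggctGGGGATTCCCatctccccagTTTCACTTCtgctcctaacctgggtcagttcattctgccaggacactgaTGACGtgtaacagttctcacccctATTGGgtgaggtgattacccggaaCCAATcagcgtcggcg
H2-T23, chr17:36032702-36032881, minus strand: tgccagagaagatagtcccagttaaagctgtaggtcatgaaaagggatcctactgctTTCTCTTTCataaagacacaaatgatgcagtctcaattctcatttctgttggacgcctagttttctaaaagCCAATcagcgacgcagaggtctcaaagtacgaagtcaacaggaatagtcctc

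In the first 3 sequences the NF-κB site came first, followed by the interferon element, TGACG and ATTGG, in that order. The longest run of bases shared by *H2-K1* and *H2-D1* was 40 bases long, and that shared by *H2-K1* and *H2-Q7* was 16 bases long. The interferon core began 90, 150, 113 and 123 bases before the start in *H2-K1*, *H2-D1*, *H2-Q7* and *H2-T23*. *H2-K1* has a second RefSeq entry with another start, whose window is not printed. There the interferon core began 104 bases before the start, and a CCAAT box on the minus strand began 6 bases before it. No NF-κB site and no TGACG were found in the *H2-T23* window. In the deposited table, *H2-D1* and *H2-T23* start upstream of the RefSeq start, so the *H2-D1* window and part of the *H2-T23* window lie within the gene as annotated there. The windows of *Tapbp* and *Erap1*, which are not printed, also lie within the gene as annotated there. The promoter table used here held entries for 8 of the 10 genes, and the promoters of *Tap2* and *Nlrc5* were not analysed here. Over the 250 bases before the start, an NF-κB site was found in 4 of these 8 and in 3.90% of all 32851 promoters in the table. The interferon core was found in 6 of 8 and in 12.5% of all promoters, TGACG in 5 of 8 and 17.8%, ATTGG in 7 of 8 and 33.8%, and the interferon-γ activated site (TTCNNNGAA) in 0 of 8 and 7.02%. These matches describe letters only, and the overlapping matches of a palindromic NF-κB site were counted as 1 promoter.

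*H2-K1* stood at 4143, 4151 and 4223 TPM in unstimulated cells. In activated cells it stood at 3127, 3151 and 3141 TPM, and in TRAIL-treated activated cells at 4062, 4036 and 3701 TPM. The activated libraries were thus the lowest and did not overlap with either other group, and all TRAIL-treated libraries were below all unstimulated ones. The log2 difference was -0.41 (SE 0.090, adjusted p = 0.00226) with stimulation and 0.32 (SE 0.090, adjusted p = 0.00882) with TRAIL against activated cells. Against unstimulated cells it was -0.09, with a 95% interval from -0.29 to 0.11 (adjusted p = 0.490). Under quantile normalization the rise with TRAIL was 0.23 and no longer passed (adjusted p = 0.0525).

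*H2-D1* gave 1633, 1926 and 1637 TPM in unstimulated cells, 1641, 1689.6 and 1712 TPM in activated cells, and 1655, 1667 and 1392 TPM in TRAIL-treated activated cells. The 3 groups overlapped. Its difference was -0.04 (95% interval -0.28 to 0.20, adjusted p = 0.763) with stimulation and -0.10 (-0.34 to 0.14, adjusted p = 0.429) with TRAIL. The difference between *H2-D1* and *H2-K1* was not tested, and under quantile normalization the value with stimulation was -0.33 for *H2-D1* (adjusted p = 0.0606) and -0.28 for *H2-K1*. Against unstimulated cells it was -0.14 (adjusted p = 0.347), and it passed there under quantile normalization (-0.43, adjusted p = 0.0448).

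*H2-Q7*, like *H2-D1*, passed in no comparison on the TPM as deposited. Its values were 354, 406 and 372 TPM, then 302, 355 and 326 TPM, then 359.7, 328 and 285 TPM in the same order of groups. The groups overlapped, and the log2 differences were -0.20 (adjusted p = 0.125), -0.02 (adjusted p = 0.892) and -0.22 (adjusted p = 0.150). With quantile normalization the first of these was -0.34 and passed (adjusted p = 0.0137). A share of 21.7% of the 75-base windows of its longest coding transcript is found in other genes, mostly in *H2-Q6* (13.6%), so its reads may be divided with its neighbours. That share was 13.1% for *H2-T23*, 6.90% for *H2-D1*, 1.55% for *H2-K1*, 0.992% for *Tapbp* and 0 for the other 5 genes.

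*H2-T23* showed the widest range of the 10 genes, 1.47 on the log2 scale over all libraries. It was at 301, 338 and 295 TPM in unstimulated cells. It was at 588, 582 and 572 TPM in activated cells and at 259, 258 and 212 TPM in TRAIL-treated activated cells. No pair of groups overlapped. The rise with stimulation was 0.90 (SE 0.10, adjusted p = 2.43e-05), and the fall with TRAIL to below activated cells was -1.26 (SE 0.10, adjusted p = 2.04e-06). Both passed in every alternative run. The difference from unstimulated cells was -0.36 (SE 0.10, adjusted p = 0.0234). It did not pass after median-of-ratios scaling (-0.17, adjusted p = 0.204), without a filter on low values (adjusted p = 0.0786), without unstimulated replicate 2 (adjusted p = 0.0649) or without TRAIL-treated replicate 3 (adjusted p = 0.0758). For every 100 *H2-K1* transcripts there were 7.46 ± 0.607 of *H2-T23* in unstimulated cells, 18.5 ± 0.297 in activated cells and 6.16 ± 0.381 in TRAIL-treated activated cells (SD, n = 3).

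Since near-identical heavy chain genes may exchange reads, the 20 heavy chain genes in the table were also summed. The sum was 7560, 8052 and 7666 TPM in unstimulated cells, 6456, 6669 and 6597 TPM in activated cells, and 7497, 7358 and 6557 TPM in TRAIL-treated activated cells. The activated libraries lay below all unstimulated ones, and the TRAIL-treated libraries ran from within the activated range to just below the unstimulated ones. The log2 ratio was -0.24 with stimulation (exact permutation p = 0.1), 0.12 with TRAIL against activated cells (exact permutation p = 0.3) and -0.12 against unstimulated cells (exact permutation p = 0.1), all two-sided, and 3 libraries against 3 cannot go below 0.1. After median-of-ratios scaling the last ratio turned to 0.07. *H2-K1* made up 53.8% ± 1.97 of the sum in unstimulated cells, 47.8% ± 0.604 in activated cells and 55.2% ± 1.16 in TRAIL-treated activated cells. The share of *H2-D1* was 21.4% to 23.9%, 25.3% to 25.9% and 21.2% to 22.7% over the libraries of the 3 groups, and that of *H2-T23* was 4.01% ± 0.178, 8.84% ± 0.237 and 3.40% ± 0.146 (SD, n = 3).

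Of the 16 other heavy chain genes matched, 10 were high enough to be tested. With stimulation 9 of them fell and 0 rose, with a median of -0.53, beside 40.0% and 28.8% of all genes. *H2-T23* thus moved against most of its family. *H2-M2*, one of the 9, reached 1 TPM only in unstimulated cells (1.43 ± 0.478 TPM), so it was tested only through the group where it was highest. *H2-T10*, a relative of the ligands of γδ T cells, is listed as a polymorphic pseudogene in GENCODE M21. It went from 56.3 ± 2.94 TPM to 28.3 ± 0.987 TPM (-0.97 on the log2 scale, which passed) and stood at 60.6 ± 4.68 TPM with TRAIL. *H2-T22* fell by less with stimulation (-0.21, adjusted p = 0.0292), from 209 ± 8.37 TPM to 180 ± 3.60 TPM. Windows shared with other genes were not counted for these 2 genes. *H2-Q4* went from 449 ± 38.7 TPM to 309.5 ± 23.3 TPM and stood at 463 ± 58.9 TPM with TRAIL. With TRAIL against activated cells 4 of the 10 rose and 1 fell (median 0.16), beside 33.5% and 33.5% of all genes. Against unstimulated cells 0 rose and 3 fell (median -0.18), beside 8.03% and 24.6%. The 4 rises and the 3 falls, which include *H2-M2*, were near these shares, and the last median lay at that of all genes (-0.18).

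*B2m* encodes β2-microglobulin, the light chain that every class I molecule needs. The gene lies on chromosome 2 (GRCm38, 122147686 to 122153083, plus strand), outside the MHC. Its upstream bases are printed because they hold the same 4 elements as the heavy chain block, with the interferon element ahead of the NF-κB site.

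B2m, chr2:122147507-122147686, plus strand: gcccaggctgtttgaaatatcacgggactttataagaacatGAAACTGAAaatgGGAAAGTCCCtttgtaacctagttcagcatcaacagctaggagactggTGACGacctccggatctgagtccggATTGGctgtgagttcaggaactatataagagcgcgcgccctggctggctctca

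*B2m* gave 4195, 3301 and 4453 TPM in unstimulated cells. It gave 4524, 3598 and 3486 TPM in activated cells and 3726, 3905 and 4418 TPM in TRAIL-treated activated cells. The groups overlapped throughout, and the spread within each was wide beside the distance between their means. The log2 differences were -0.04 (95% interval -0.37 to 0.29, adjusted p = 0.825), 0.06 (-0.27 to 0.39, adjusted p = 0.737) and 0.02 (-0.31 to 0.35, adjusted p = 0.933). There were 51.5 ± 9.21, 59.0 ± 9.64 and 56.7 ± 9.39 *B2m* transcripts for every 100 heavy chain transcripts (SD, n = 3), groups that also overlapped. *B2m* ranked 10 to 28 among all genes of a library and *H2-K1* ranked 19 to 31, so both belonged to the most abundant transcripts in all 9 libraries. *H2-K1* and *B2m* overlapped in level in unstimulated and TRAIL-treated activated cells, while in activated cells every library of *B2m* was above every library of *H2-K1*.

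The transporter and its bridge to the heavy chain followed stimulation upwards and TRAIL downwards. *Tap1* and *Tap2* encode the paired subunits of the TAP peptide pump and lie 15974 bases apart, start to start, on chromosome 17 (GRCm38, 34187553 to 34197225 and 34203527 to 34216321, both plus strand). *Psmb9*, an immunoproteasome gene, starts 211 bases inside *Tap1* on the opposite strand, so the first bases of the 2 genes overlap in the deposited table. The bases before *Tap1*, which lie within *Psmb9* as annotated there, are printed because of this arrangement.

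Tap1, chr17:34187306-34187555, plus strand: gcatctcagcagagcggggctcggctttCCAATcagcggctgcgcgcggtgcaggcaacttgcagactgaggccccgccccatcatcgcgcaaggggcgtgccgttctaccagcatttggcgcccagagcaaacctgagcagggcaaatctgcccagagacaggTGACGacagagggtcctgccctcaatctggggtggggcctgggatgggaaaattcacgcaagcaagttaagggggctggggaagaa

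The window held a CCAAT box 222 bases before the *Tap1* start, read on the minus strand, and TGACG 86 bases before it. Whether the counting used strand is not given in the sources used here, so reads from the overlap may not be told apart between *Tap1* and *Psmb9*.

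*Tap1* was at 210.2, 248 and 213 TPM in unstimulated cells, at 310.5, 334 and 329 TPM in activated cells, and at 172, 162 and 128 TPM in TRAIL-treated activated cells. The 3 groups did not overlap. It rose by 0.54 (SE 0.12, adjusted p = 0.00260) with stimulation, and with TRAIL it fell to below activated cells (-1.08, SE 0.12, adjusted p = 2.09e-05) and below unstimulated cells (-0.54, SE 0.12, adjusted p = 0.00776). All 3 calls held in every alternative run.

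*Tap2* was at 131, 158 and 137 TPM in unstimulated cells, at 169.9, 191 and 196 TPM in activated cells, and at 148, 142 and 107 TPM in TRAIL-treated activated cells. The activated libraries were above all others, and the other groups overlapped. Its rise was 0.38 (SE 0.13, adjusted p = 0.0268). That call was lost in 6 alternatives, among them quantile normalization (adjusted p = 0.0962) and leaving out unstimulated replicate 1 or 3 or activated replicate 2 or 3 (adjusted p from 0.0692 to 0.0887). With TRAIL it fell by 0.50 against activated cells (SE 0.13, adjusted p = 0.00782), which did not pass without a filter on low values (adjusted p = 0.0548) or with quantile normalization (adjusted p = 0.0552). Against unstimulated cells the difference was -0.11 (95% interval -0.41 to 0.19, adjusted p = 0.558).

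*Tapbp* encodes tapasin and lies on chromosome 17 (GRCm38, 33915899 to 33929292, plus strand). It was at 231, 299 and 257 TPM in unstimulated cells, at 305, 337 and 321 TPM in activated cells, and at 156, 150.4 and 124 TPM in TRAIL-treated activated cells. The groups did not overlap, and the TRAIL-treated libraries were far below both other groups. The rise with stimulation was 0.30 (SE 0.12, adjusted p = 0.0496), at the edge of the threshold. It was lost in 10 alternatives (adjusted p from 0.0504 to 0.183), among them leaving out unstimulated replicate 1 or 3 or activated replicate 2 or 3. The difference with TRAIL was -1.16 against activated cells (SE 0.12, adjusted p = 1.29e-05) and -0.87 against unstimulated cells (SE 0.12, adjusted p = 7.40e-04), both held in every alternative run. For every 100 heavy chain transcripts there were 8.08 ± 0.609 transcripts of *Tap1*, *Tap2* and *Tapbp* together in unstimulated cells, 12.6 ± 0.417 in activated cells and 6.00 ± 0.459 in TRAIL-treated activated cells (SD, n = 3).

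*Erap1* encodes the aminopeptidase that trims peptides in the endoplasmic reticulum and lies on chromosome 13 (GRCm38, 74639568 to 74693201, plus strand). It was the least abundant of the 10 in mean level in all 3 groups, at 74.3, 68.6 and 73.2 TPM in unstimulated cells, 80.9, 91.4 and 88.6 TPM in activated cells, and 56.4, 55.1 and 55.3 TPM in TRAIL-treated activated cells. The 3 groups did not overlap, and the TRAIL-treated libraries lay close together. It rose by 0.27 (SE 0.085, adjusted p = 0.0169), a call lost without activated replicate 2 (adjusted p = 0.0708) or 3 (adjusted p = 0.0619). With TRAIL it fell to below activated cells (-0.64, SE 0.085, adjusted p = 7.73e-05) and below unstimulated cells (-0.37, SE 0.085, adjusted p = 0.00929). The last of these did not pass after median-of-ratios scaling (-0.18, adjusted p = 0.119).

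*Nlrc5* lies on chromosome 8 (GRCm38, 94434356 to 94527272, plus strand) and encodes a regulator of class I genes rather than a part of the machinery. Its values were 89.9, 100.2 and 90.7 TPM in unstimulated cells, 71.3, 115 and 117 TPM in activated cells, and 95.6, 85.8 and 76.8 TPM in TRAIL-treated activated cells. Activated replicate 1 was the lowest of all 9 libraries and the other activated replicates were the highest. The differences were 0.08 (95% interval -0.32 to 0.47, adjusted p = 0.718), -0.20 (-0.59 to 0.19, adjusted p = 0.339) and -0.12 (-0.52 to 0.27, adjusted p = 0.622). Without activated replicate 1 the first was 0.31 (adjusted p = 0.0262) and the second -0.43 (adjusted p = 0.00483), so this library decides the result for *Nlrc5*. In that library, genes with a coding transcript of 5000 bases or more had a median deviation of -0.34 from their group mean on the log2 scale, and genes under 1000 bases one of 0.18, the widest gap of the 9 libraries. The longest coding transcript of *Nlrc5* is 7578 bases and that of *B2m* is 860 bases. *Nlrc5* deviated by -0.46 and *B2m* by 0.24 in the same library. Other libraries held smaller gaps in either direction. In unstimulated replicate 2 the medians were 0.11 for the long and -0.16 for the short genes, and *B2m* deviated by -0.26. The part of transcript length in these deviations was not tested.

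In order of mean level, unstimulated cells gave *H2-K1*, *B2m*, *H2-D1*, *H2-Q7*, *H2-T23*, *Tapbp*, *Tap1*, *Tap2*, *Nlrc5* and *Erap1*. The libraries of *H2-K1* and *B2m*, of *H2-T23* and *Tapbp*, and of *Tapbp* and *Tap1* overlapped, and the other neighbours did not. In activated cells *B2m* came first and *H2-T23* moved ahead of *H2-Q7*, with overlap between *H2-Q7* and *Tap1*, between *Tap1* and *Tapbp*, and between *Nlrc5* and *Erap1*. In TRAIL-treated activated cells *H2-Q7* was again ahead of *H2-T23*, and *Tap1*, *Tapbp* and *Tap2*, in that order, overlapped each with the next.

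The genes that make peptides ready for these molecules are shown in the plot of pathway genes by role. Of the 5 genes of the immunoproteasome and its PA28 activator, 4 rose and 1 fell with stimulation (median 0.92), and all 5 fell with TRAIL against activated cells (median -1.49). Against unstimulated cells 3 fell and 0 rose (median -0.47). *Psme1*, a PA28 subunit, went from 294 ± 3.50 TPM in unstimulated cells to 714 ± 27.4 TPM in activated cells and 254 ± 15.2 TPM with TRAIL. *Psmb8*, a catalytic subunit, went from 238 ± 13.9 TPM to 450.4 ± 23.4 TPM and 155 ± 19.1 TPM. *Psmb10*, another catalytic subunit, was the one that fell in both steps, from 96.9 ± 1.81 TPM to 83.2 ± 6.28 TPM and 67.6 ± 3.41 TPM (SD, n = 3). Its fall with stimulation (-0.22, adjusted p = 0.0461) was at the edge of the threshold, beside a median of -0.15 for all genes. Alternative settings were run for the 10 members and the heavy chain sum, not for this gene.

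The constitutive subunits that these replace, *Psmb5*, *Psmb6* and *Psmb7*, rose as well with stimulation (3 of 3, median 1.28) and fell with TRAIL (3 of 3, median -1.54). The number of *Psmb8* transcripts per *Psmb5* transcript was 3.62 ± 0.384 in unstimulated cells, 2.16 ± 0.232 in activated cells and 2.50 ± 0.321 in TRAIL-treated activated cells. For *Psmb10* per *Psmb7* it was 0.831 ± 0.136, 0.324 ± 0.0221 and 0.774 ± 0.0784, and for *Psmb9* per *Psmb6* it was 0.785 ± 0.0948, 0.524 ± 0.00423 and 0.535 ± 0.130 (SD, n = 3). The inducible subunits were thus lower relative to their constitutive partners in every activated library than in every unstimulated one, although their own levels rose for *Psmb8* and *Psmb9*.

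**Figure D4:**
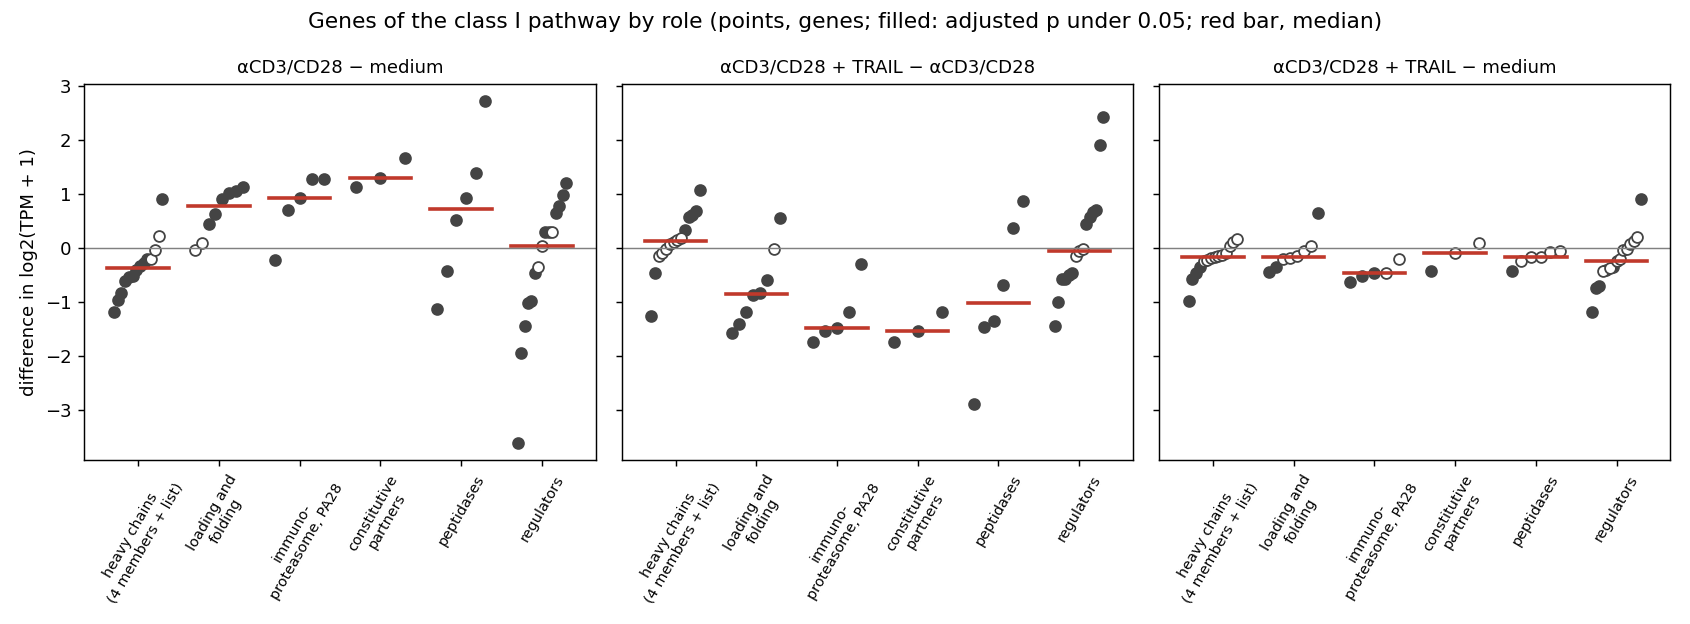
limma differences in log2(TPM + 1) (y axis) of class I pathway genes grouped by role (x axes) in 3 comparisons. Each point is a gene, filled where it passed an adjusted p under 0.05, and red bars are medians. The 5 immunoproteasome and PA28 genes and the 3 constitutive partners all lie below 0 in the second panel, and the heavy chains lie on both sides of 0.

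Among 8 partners in peptide loading and folding, 6 rose and 0 fell with stimulation (median 0.77), 1 rose and 6 fell with TRAIL against activated cells (median -0.85), and 1 rose and 2 fell against unstimulated cells (median -0.16). *Tapbpl*, whose product TAPBPR edits peptides outside the loading complex, went from 55.3 ± 4.34 TPM to 121 ± 6.02 TPM and then 40.4 ± 3.77 TPM. The chaperones calreticulin and calnexin went together, with *Calr* at 481 ± 55.9 TPM, 903 ± 72.4 TPM and 493 ± 10.6 TPM and *Canx* at 182 ± 8.91 TPM, 368 ± 26.7 TPM and 160.3 ± 1.97 TPM. *Uggt1*, the folding sensor, passed in no comparison (-0.04, -0.01 and -0.05). *Hspa5*, the chaperone BiP, stood at 651 ± 54.0 TPM, 694 ± 23.1 TPM and 1015 ± 91.3 TPM, and it was higher with TRAIL than in activated cells (0.55) and in unstimulated cells (0.64), both passing the test. Of 6 cytosolic and endosomal peptidases tested, 4 rose and 2 fell with stimulation (median 0.72), 2 rose and 4 fell with TRAIL against activated cells (median -1.02) and 1 fell against unstimulated cells (median -0.17). The same shares of all genes, 28.8% and 40.0%, 33.5% and 33.5%, and 8.03% and 24.6%, stand beside the counts of all these lists, and the peptidases that fell with stimulation and rose with TRAIL were near them. *Thop1*, which degrades cytosolic peptides, had the largest change of these, from 8.62 ± 1.60 TPM to 62.0 ± 7.09 TPM and back to 7.61 ± 1.73 TPM (SD, n = 3).

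Of the 15 regulators of class I genes, 6 rose and 6 fell with stimulation (median 0.04), beside 28.8% and 40.0% of all genes. With TRAIL, 6 rose and 6 fell against activated cells (median -0.07), beside 33.5% and 33.5%, and 1 rose and 5 fell against unstimulated cells (median -0.24), beside 8.03% and 24.6%. Most of these shares are near those of all genes. *Irf1*, an interferon-induced factor that binds the interferon element, was at 231 ± 8.85 TPM in unstimulated cells, 455 ± 49.5 TPM in activated cells and 436 ± 59.1 TPM with TRAIL. Its difference was 0.97 with stimulation and 0.91 with TRAIL against unstimulated cells, both passing, and -0.07 with TRAIL against activated cells (adjusted p = 0.645). *Nfkb1*, an NF-κB subunit, was at 158 ± 17.0 TPM, 370.2 ± 71.9 TPM and 134 ± 15.9 TPM. *Rfx5*, a partner of NLRC5 on class I promoters, was at 54.1 ± 5.27 TPM, 19.5 ± 4.49 TPM and 31.9 ± 2.81 TPM, and *Ciita*, the class II transactivator, at 67.6 ± 7.14 TPM, 4.74 ± 1.39 TPM and 29.2 ± 3.73 TPM (SD, n = 3). Of the 6 class II genes, 5 fell with stimulation and 5 rose with TRAIL against activated cells, as *Ciita* did, with sums of 5709 to 6750 TPM, 866 to 995 TPM and 3405 to 3660 TPM. The sixth, *H2-DMa*, passed in neither of these comparisons (-0.30, adjusted p = 0.0696, and -0.16, adjusted p = 0.304). The B cell markers also moved as *Ciita* did, and the part of such cells in its level was not tested.

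*Ifng*, the cytokine that induces many of the genes above, was at 9.19 ± 1.30 TPM in unstimulated cells, 216 ± 31.1 TPM in activated cells and 41.3 ± 9.21 TPM in TRAIL-treated activated cells. All 3 groups were apart, and the difference was 4.41 with stimulation, -2.37 with TRAIL against activated cells and 2.04 against unstimulated cells. The receptor gene *Ifngr2* was at 36.0 ± 0.727 TPM in unstimulated cells, 36.0 ± 0.772 TPM in activated cells and 90.8 ± 3.85 TPM with TRAIL (SD, n = 3). It was higher with TRAIL than in both other groups (1.31 in each case, both passing). *Socs1*, which dampens the signal, was at 5.84 ± 0.930 TPM, 123 ± 21.7 TPM and 12.2 ± 1.37 TPM in the same order of groups. Of the 8 genes of the IFN-γ pathway, 4 rose and 2 fell with stimulation (median 0.63), 3 rose and 4 fell with TRAIL against activated cells (median -0.53), and 5 rose and 1 fell against unstimulated cells (median 0.82). The shares of all genes that rose and fell were 28.8% and 40.0%, 33.5% and 33.5%, and 8.03% and 24.6%. In TRAIL-treated activated cells, *Ifng* and *Irf1* were therefore above unstimulated cells while *Tap1*, *Tapbp*, *Erap1* and *H2-T23* were below them, where the calls of *Erap1* and *H2-T23* were lost under the settings given with each gene.

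The genes whose profile over the 9 libraries was most like that of 3 members were sought among the 10456 genes whose mean reached 10 TPM in any group. Likeness was the mean absolute difference of log2(TPM + 1) after each gene was centred on its own mean. For *H2-K1* the nearest were *Tmem234* (0.0323), *Lta4h* (0.0384) and *Il2rg* (0.0389), beside a range of 0.43 for *H2-K1* itself. For *Nlrc5* they were *Rock2* (0.0442), *Btbd9* (0.0453) and *Osbpl8* (0.0461), and for *B2m* the ribosomal protein gene *Rpsa* (0.0557), *Czib* (0.0609) and *Uqcc3* (0.0637). No other class I presentation gene was among them.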

How the data were processed

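RNA-seq was carried out on 9 libraries of CD4+ T cells in 3 groups of 3, which were assigned from the sample labels. The authors trimmed the reads, aligned them with HISAT2 to GRCm38 according to the study's methods, and deposited 1 table of TPM values for 55487 genes. The submitters' processing notes name Trimmomatic 0.36, HISAT2 2.1.0, SAMtools 1.2, StringTie 2.1.2 and DESeq2, and list the build GRCh38. The loci in the table are those of mouse GRCm38, since 99.3% of the genes found in GENCODE M21 lie at the same position. The annotation release and the strand setting are not given in the sources used here. TPM holds no depth, so counting error is unknown, and the values of a library are shares of a fixed total.

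The 10 members, the lists of pathway and marker genes, the motifs and the tests were chosen with earlier results of these data known. For the comparisons, limma 3.58.1 under R 4.3.3 was run on log2(TPM + 1) with an intensity trend in eBayes. The 9 libraries entered 1 fit, with no replicate block, and 15536 genes that reached 1 TPM in 3 or more libraries were tested. Genes passed at a Benjamini-Hochberg adjusted p under 0.05 over all genes tested. Summed heavy chain levels were compared by a two-sided exact permutation test. The code was tested on simulated data with known changes. The rule for named genes took all 10 members, the loading partners, the immunoproteasome, *Ifng*, *Irf1*, *Rfx5*, *Ciita*, the listed genes with the largest changes that passed, and the 3 most similar profiles for *Nlrc5*, *H2-K1* and *B2m*. *Ifngr2*, *Nfkb1*, *H2-Q4*, *H2-T10*, *H2-T22*, *H2-M2*, *H2-DMa*, *Cd1d1*, *Cd1d2*, *Mr1*, the marker genes named and the proteasome ratios were added after their values were seen. The values of some genes are not reported here. Alternatives changed the scaling, pseudocount, low-value filter, variance trend, replicate block or the libraries fitted. Plots were drawn with matplotlib 3.10.9 under Python 3.11.15 with pandas 2.3.3.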

Additional observations from a re-analysis of the deposited data

How the results depend on the processing

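Of 450 values of single members under alternative settings, 420 kept their side of the threshold, 26 no longer passed and 4 newly passed. None of the called differences changed sign, and 25 values of differences that had not passed did so without passing, 11 of them for *B2m*. Leaving out 1 library at a time gave 3 to 7 members that passed in activated against unstimulated cells, where all libraries gave 6, and the count was 3 without activated replicate 2 or 3. It gave 6 to 7 in TRAIL-treated activated against activated cells and 3 to 4 against unstimulated cells. Median-of-ratios scaling left 2 members passing in TRAIL-treated activated against unstimulated cells (4 without scaling), *Tap1* and *Tapbp*. Quantile normalization left 1 member of the 3 with a log2 fall of at least 1 in TRAIL-treated activated against activated cells, *H2-T23*. The log2 ratio of the summed heavy chains was -0.29 for *H2-K1* and *H2-D1* alone and -0.15 after median-of-ratios scaling with stimulation. After that scaling it was 0.21 with TRAIL against activated cells and 0.068 against unstimulated cells, where it had been -0.12. The cause of these shifts was not tested.

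Same-numbered libraries did not deviate together, since the correlations of their deviations from the group means ran from -0.31 to 0.30 over the 9 pairs, and the numbers were not taken as pairs. A fit with the replicate block gave 5, 6 and 4 members that passed in the 3 comparisons, beside 6, 6 and 4 without it, the one lost being the rise of *Tapbp* (adjusted p = 0.0510). TPM values carry no depth, so the precision of a level rests on 3 libraries a group alone.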

Other observations

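Class I-like molecules share the fold of the heavy chain but serve other tasks. Of 6 in the list, 5 fell and 1 rose with stimulation (median -2.44), beside 40.0% and 28.8% of all genes. With TRAIL against activated cells 5 rose and 1 fell (median 2.00), beside 33.5% and 33.5%. Against unstimulated cells 3 fell and 0 rose (median -0.39), beside 24.6% and 8.03%. Only in unstimulated cells did all libraries of *Cd1d2* reach 1 TPM, and only in activated cells those of *Procr*. Both were thus tested through the group where they were highest. *Fcgrt*, the neonatal Fc receptor, was at 42.4 ± 0.632 TPM in unstimulated cells, 0.584 ± 0.147 TPM in activated cells and 31.3 ± 3.50 TPM in TRAIL-treated activated cells. *Cd1d1*, which presents lipids to NKT cells, was at 55.0 ± 1.62 TPM, 7.37 ± 0.987 TPM and 43.0 ± 5.46 TPM, and *Mr1*, which presents vitamin B metabolites to MAIT cells, at 20.1 ± 1.59 TPM, 3.81 ± 0.531 TPM and 13.7 ± 1.81 TPM. *Hfe*, which takes part in iron balance, was at 13.7 ± 1.71 TPM, 0.156 ± 0.0215 TPM and 11.6 ± 0.859 TPM. *Procr*, the endothelial protein C receptor, was the gene that rose with stimulation, at 1.05 ± 0.328 TPM, 22.8 ± 0.920 TPM and 0.381 ± 0.104 TPM (SD, n = 3). B cell and myeloid markers were also lowest in activated cells, with sums of 732 to 801 TPM and 117 to 142 TPM there, and their part in the levels of *Fcgrt*, *Cd1d1*, *Mr1* and *Hfe* was not tested.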
